A study of Mus musculus with 6 samples.

Results

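The Sprouty, Spred and related inhibitors of the RAS to ERK pathway were examined as 10 genes: Spry1, Spry2, Spry4, Spred1, Spred2, Dusp4, Dusp5, Dusp6, Rasa1 and Rasa2. Members were chosen by name, as each probe set whose platform gene symbol is 1 of these, which gave 28 of the 45037 probe sets on the array. A probe set is a group of short probes that together measure 1 transcript. RNA from granulocyte/macrophage progenitors (GMPs), which form granulocytes and monocytes, sorted from the bone marrow of BL6 mice, was hybridised to 6 Affymetrix 430 2.0 arrays. The groups were wild type (WT; a male of 12 weeks as replicate 1 and a female of 19 weeks as replicate 2), IRF8KO, which lacks the transcription factor IRF8 (a female of 12 weeks and a male of 22 weeks), and IRF4/8DKO, which lacks both IRF4 and IRF8 (a male and a female, both 16 weeks). Each group thus had 2 arrays, and both knockout groups share the loss of IRF8. The sources used here do not say how the alleles were made or whether the mice were littermates.

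Growth factor receptors such as KIT pass their signal through RAS, RAF and MEK to the kinase ERK, which drives division and differentiation of blood progenitors. ERK also induces genes that shut the pathway down again. Sprouty proteins (Spry) interfere with the step from receptors to RAS and RAF, and Spred proteins recruit the RAS inhibitor neurofibromin to the membrane. The dual-specificity phosphatases DUSP4, DUSP5 and DUSP6 remove the activating phosphates from ERK, and the GTPase-activating proteins RASA1 and RASA2 switch RAS off. In myeloid cells this pathway lies downstream of receptors for stem cell factor, GM-CSF and M-CSF.

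Promoters from RefSeq (GRCm38.p6) were found for 8 of the 10 members. They were searched on both strands, from 250 bases before to 50 bases after the start site, for tandem IRF half-sites (GAAA, any NN, then GAAA), a composite ETS and IRF site (GGAA, any NN, then GAAA, which can overlap the first), TGANTCA (AP-1), CCGGAAGT (ETS) and TGACGTCA (CRE). None of these 5 was found in the 8 windows. They occurred in 3.99%, 3.16%, 8.97%, 4.31% and 2.03% of 27025 genes, in the same order. With shares this low, absence from 8 windows does not set the members apart from other genes. The composite site was searched with its parts in this order only. The reverse order (GAAA, any NN, then GGAA) was not searched or counted over all genes. The Spry2 promoter sequence holds GAAAAAGGAA, a match to that reverse order. The CArG box, bound by serum response factor, was added after the sequences were read. It was found in the Dusp5 promoter at -82 to -73 and at -72 to -63, side by side, and in 1.81% of all genes. By the brightest probe set of each member, IRF4/8DKO lay above WT without overlap for 1 (Spry2) and below for 4 (Spry1, Spred1, Spred2 and Rasa1). The shares over all probe sets were 18.3% and 25.3%. Of these members Spry2 and Spred1 were taken as examples. The 250 bases before the start site are shown for them and for Dusp5, with the CArG boxes in capitals. They lie at chr14:105896820-105897069 (minus strand), chr2:117120821-117121070 (plus strand) and chr19:53528895-53529144 (plus strand).
Spry2: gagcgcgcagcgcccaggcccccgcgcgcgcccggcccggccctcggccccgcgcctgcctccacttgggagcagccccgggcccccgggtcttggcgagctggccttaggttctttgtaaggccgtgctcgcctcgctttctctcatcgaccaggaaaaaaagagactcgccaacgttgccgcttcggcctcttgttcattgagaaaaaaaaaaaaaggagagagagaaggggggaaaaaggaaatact
Spred1: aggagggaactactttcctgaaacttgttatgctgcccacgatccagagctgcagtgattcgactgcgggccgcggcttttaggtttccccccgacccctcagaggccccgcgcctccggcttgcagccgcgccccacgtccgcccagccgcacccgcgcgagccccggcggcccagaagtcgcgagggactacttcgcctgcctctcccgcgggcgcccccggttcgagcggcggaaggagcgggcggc
Dusp5: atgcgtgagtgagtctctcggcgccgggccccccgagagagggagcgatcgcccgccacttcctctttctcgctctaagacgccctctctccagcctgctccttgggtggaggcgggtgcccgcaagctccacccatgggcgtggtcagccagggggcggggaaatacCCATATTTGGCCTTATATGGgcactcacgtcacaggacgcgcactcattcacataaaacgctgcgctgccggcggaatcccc
They held 23, 31 and 21 CpG dinucleotides, against a median of 6 over all windows. A match describes letters only, and no binding was measured here.

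Expression is given as dChip intensity on a linear scale, in which arrays carry no read depth and their number limits the precision. Differences are on the scale of log2(value + 10.5), which understates changes of low genes, and were tested with limma over the 29783 probe sets that passed a filter on low values. The Benjamini-Hochberg adjusted p had a threshold of 0.05. The filter kept 24 of the 28 member probe sets and at least 1 for each member. It left out 3 of 4 for Spry4 and 1 of 8 for Spred1, which read between 1.61 and 19.85 on each array. The brightest kept probe set, by mean log2 value, stands for a gene. Levels of different genes are not compared, since probes differ in how well they bind.

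The markers of the labelled cell type were present on each array but not level across genotypes. The neutrophil elastase gene Elane lay between 7434 and 9950 and the myeloperoxidase gene Mpo between 12946 and 15417. The gate marker Cd34 read 1747 and 1401 in WT, 440 and 669 in IRF8KO, and 590 and 509 in IRF4/8DKO, below WT without overlap in both knockouts. The Fc receptor gene Fcgr3 of the gate read 1090 and 1259, 2618 and 6315, and 2516 and 5863, above WT without overlap in both. The part of these gate markers in the results on members was not tested. The 10 GMP and gate markers were kept, and their summed intensity ran from 43181 to 50927 in WT, 47542 to 55185 in IRF8KO and 52122 to 61666 in IRF4/8DKO, a sum to which Mpo, Elane and Ctsg contribute most. Il7r, a gene absent from the gate, read 4.31 to 27.1. The mast cell, basophil and eosinophil list (10 of 10 markers kept) summed to 14674 and 9655 in WT, 5648 and 3423 in IRF8KO, and 1716 and 1891 in IRF4/8DKO. The stem and multipotent progenitor list (8 of 8 kept) summed to 5998 and 3541, 1061 and 772, and 1209 and 421, in the same order. The megakaryocyte list (5 of 7 kept) summed to 4854 and 1182, 1711 and 593, and 96.1 and 127, and the erythroid list (7 of 8 kept) to 8558 and 6837, 4181 and 4018, and 6193 and 4439. Monocyte and macrophage markers (6 of 7 kept) summed to 12765 and 15494 in WT, 22088 and 24892 in IRF8KO, and 25017 and 32511 in IRF4/8DKO. Mature neutrophil markers (8 of 8 kept) followed replicates more than genotype, at 12432 and 29902, 25312 and 43733, and 20751 and 42506. B and T cell markers (4 of 7 kept) summed to 126 to 230 on each array. In such bulk samples, fewer cells of a type and less RNA per cell cannot be told apart. Signal of Irf8 and Irf4 was not lower in each knockout group and does not check the labels, since the deleted parts and the probe positions are unknown here. The brighter Irf8 probe set lay at 2588 to 3052 in WT, 2602 to 3811 in IRF8KO and 2611 to 4778 in IRF4/8DKO. The brighter Irf4 probe set lay at 23.5 to 32.1, 7.66 to 13.8 and 54.6 to 65.99, in the same order.

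The first question was whether loss of IRF8, alone or with IRF4, changed the level of these inhibitors. No member passed the test. With limma, 0 of 24 member probe sets had an adjusted p under 0.05 in IRF8KO against WT, where the share over all probe sets was 0.0302%. The same was 0 of 24 in IRF4/8DKO against WT (0.299% over all) and 0 of 24 in IRF4/8DKO against IRF8KO (0% over all). At an unadjusted p under 0.05 there were 1, 3 and 3 member probe sets in the same order, where the shares over all were 13.5%, 9.05% and 8.52%. The 1 of 24 in IRF8KO against WT lies below the share over all, and the 3 of 24 in the other comparisons slightly above it. The 3 in IRF4/8DKO against WT were 1 each of Spry1, Spry2 and Spred1. Those between the knockouts were 2 of Spred1 and 1 of Dusp5, so the counts are small and partly repeat 1 gene. Over the 10 representative probe sets the median log2 fold change was 0.10 in IRF8KO against WT, with 5 genes above and 5 below 0, where the median over all probe sets was -0.06. It was -0.20 in IRF4/8DKO against WT, with 3 above and 7 below, against -0.04 over all. Between the knockouts it was -0.25, with 4 above and 6 below, against 0.02. Both comparisons with WT use the same WT arrays.

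**Figure D1:**
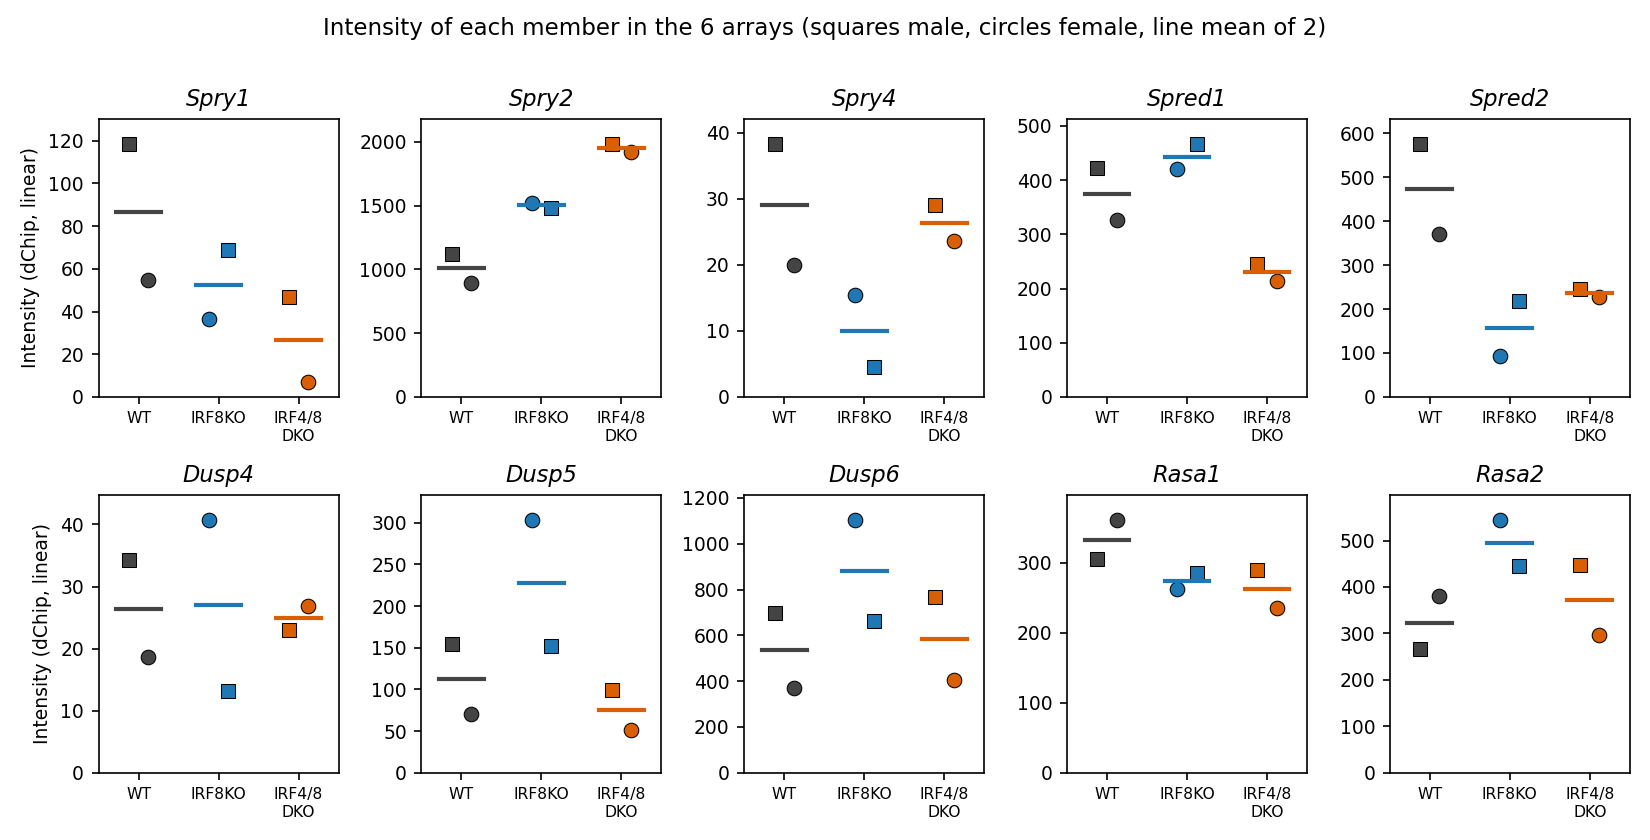
Intensity of the representative probe set of each member (linear scale from 0, own range per panel) in the 6 arrays, with squares for male mice, circles for female mice and a line at the mean of 2 arrays. Spry2 steps up from WT (1118 and 896) to IRF4/8DKO (1983 and 1917), Spred2 is highest in WT, and the Dusp4 and Dusp6 groups overlap.

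Among the Sprouty genes, Spry2 read 1118 and 896 in WT, 1523 and 1477 in IRF8KO, and 1983 and 1917 in IRF4/8DKO by its brighter probe set, 1436584_at. The 3 genotypes did not overlap, and the order was WT, IRF8KO, IRF4/8DKO. Means were 1007 ± 157, 1500.4 ± 32.4 and 1949.6 ± 46.7 (SD, n = 2). IRF8KO lay 1.49-fold above WT (log2 fold change 0.58 ± 0.30 SE, limma adjusted p = 0.442), and IRF4/8DKO 1.94-fold above WT (0.95 ± 0.30 SE, limma adjusted p = 0.341, with an unadjusted 95% interval of 0.27 to 1.63). Between the knockouts the difference was 1.30-fold (0.38 ± 0.30 SE, limma adjusted p = 0.743). SPRY2 binds the ubiquitin ligase CBL. The summed monocyte and macrophage markers given above stand in the same order of genotypes, and their part in this difference was not tested.

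The other Spry2 probe set did not repeat this order. On 1421656_at the values were 113 and 77.1 in WT, 29.3 and 98.0 in IRF8KO, and 64.4 and 74.4 in IRF4/8DKO. It lay below WT in both knockouts (log2 fold change -0.66 ± 0.53 and -0.38 ± 0.53 SE, limma adjusted p = 0.629 and 0.895). The mean over both probe sets was -0.042 in IRF8KO and 0.29 in IRF4/8DKO against WT. Which probe set follows the Spry2 message better was not tested.

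Spry1, another inhibitor of receptor signalling, read 119 and 54.6 in WT, 36.5 and 68.6 in IRF8KO, and 46.6 and 6.96 in IRF4/8DKO. IRF4/8DKO lay below WT without overlap, while IRF8KO overlapped both. The difference of IRF4/8DKO from WT was 2.90-fold (log2 fold change -1.54 ± 0.63 SE, limma adjusted p = 0.501). It rested on replicate 2 of IRF4/8DKO, which lies below the pseudocount: without that array the log2 fold change was -0.68, and without WT replicate 1 it was -1.04. The stem, mast cell and megakaryocyte sums given above are lower in both IRF4/8DKO arrays than in WT too, and their part in this difference, and in that of Spred1, was not tested.

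Spry4 was near the floor. Its kept probe set, 1422021_at, read 38.3 and 20.0 in WT, 15.4 and 4.47 in IRF8KO, and 29.1 and 23.6 in IRF4/8DKO. IRF8KO lay below the other genotypes without overlap (log2 fold change against WT -0.97 ± 0.43 SE, limma adjusted p = 0.376), with a mean of 9.93 that is under the pseudocount. IRF4/8DKO lay 1.87-fold above IRF8KO (0.90 ± 0.43 SE, limma adjusted p = 0.605). The difference from WT was -1.37 and -0.58 without IRF8KO replicates 1 and 2, and -0.63 without WT replicate 1, and that between the knockouts was 1.30 and 0.51 without IRF8KO replicates 1 and 2. Against WT the IRF4/8DKO difference was -0.069 ± 0.43 SE, and its sign turned to 0.12 under quantile normalization and 0.15 under median centring. The 3 probe sets left out read 14.2 or less or, for 1440867_at, 11.3 to 19.9, so 1 probe set carries what is said of Spry4.

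Spred1 was the member with the most probe sets, 7 of them kept, and on each of the 7 both IRF4/8DKO arrays lay below both WT arrays. The representative probe set, 1428777_at, read 422 and 327 in WT, 420 and 467 in IRF8KO, and 245 and 215 in IRF4/8DKO. IRF4/8DKO lay 1.59-fold below WT (log2 fold change -0.67 ± 0.41 SE, limma adjusted p = 0.711) and 1.89-fold below IRF8KO (-0.92 ± 0.41 SE, limma adjusted p = 0.585). Over the 7 probe sets the log2 fold change against WT ran from -1.74 to -0.39 with a median of -0.67, and adjusted p from 0.27 to 0.868. They measure 1 gene in the same RNA and are not replicates. Over all members, 13 of 24 probe sets lay below WT in IRF4/8DKO without overlap and 2 above, where the shares over all probe sets were 25.3% and 18.3%, and Spred1 supplied 7 of the 13.

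The strongest Spred1 difference was on 1445228_at, which read 133 and 52.4 in WT, 64.0 and 99.3 in IRF8KO, and 18.2 and 17.7 in IRF4/8DKO. IRF4/8DKO lay 3.34-fold below WT (-1.74 ± 0.49 SE, limma adjusted p = 0.27, the lowest adjusted p of a member in this comparison). On 1460116_s_at the values were 455 and 344, 761 and 340, and 179 and 181, in the same order. Both probe sets separate IRF4/8DKO from the other 2 genotypes.

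Against IRF8KO the Spred1 probe sets parted into groups. On 4 of them (1428777_at, 1460116_s_at, 1423160_at and 1445228_at) IRF4/8DKO lay below IRF8KO without overlap, with log2 fold changes from -1.67 to -0.85. On the other 3 (1423161_s_at, 1452911_at and 1423162_s_at) the arrays overlapped and the differences lay between -0.031 and 0.016. On those 3 IRF8KO itself lay below WT, by 0.38 to 0.54 on the log2 scale, and 2 of them did so without overlap. The sources used here do not say where on the transcript each probe set lies.

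**Figure D2:**
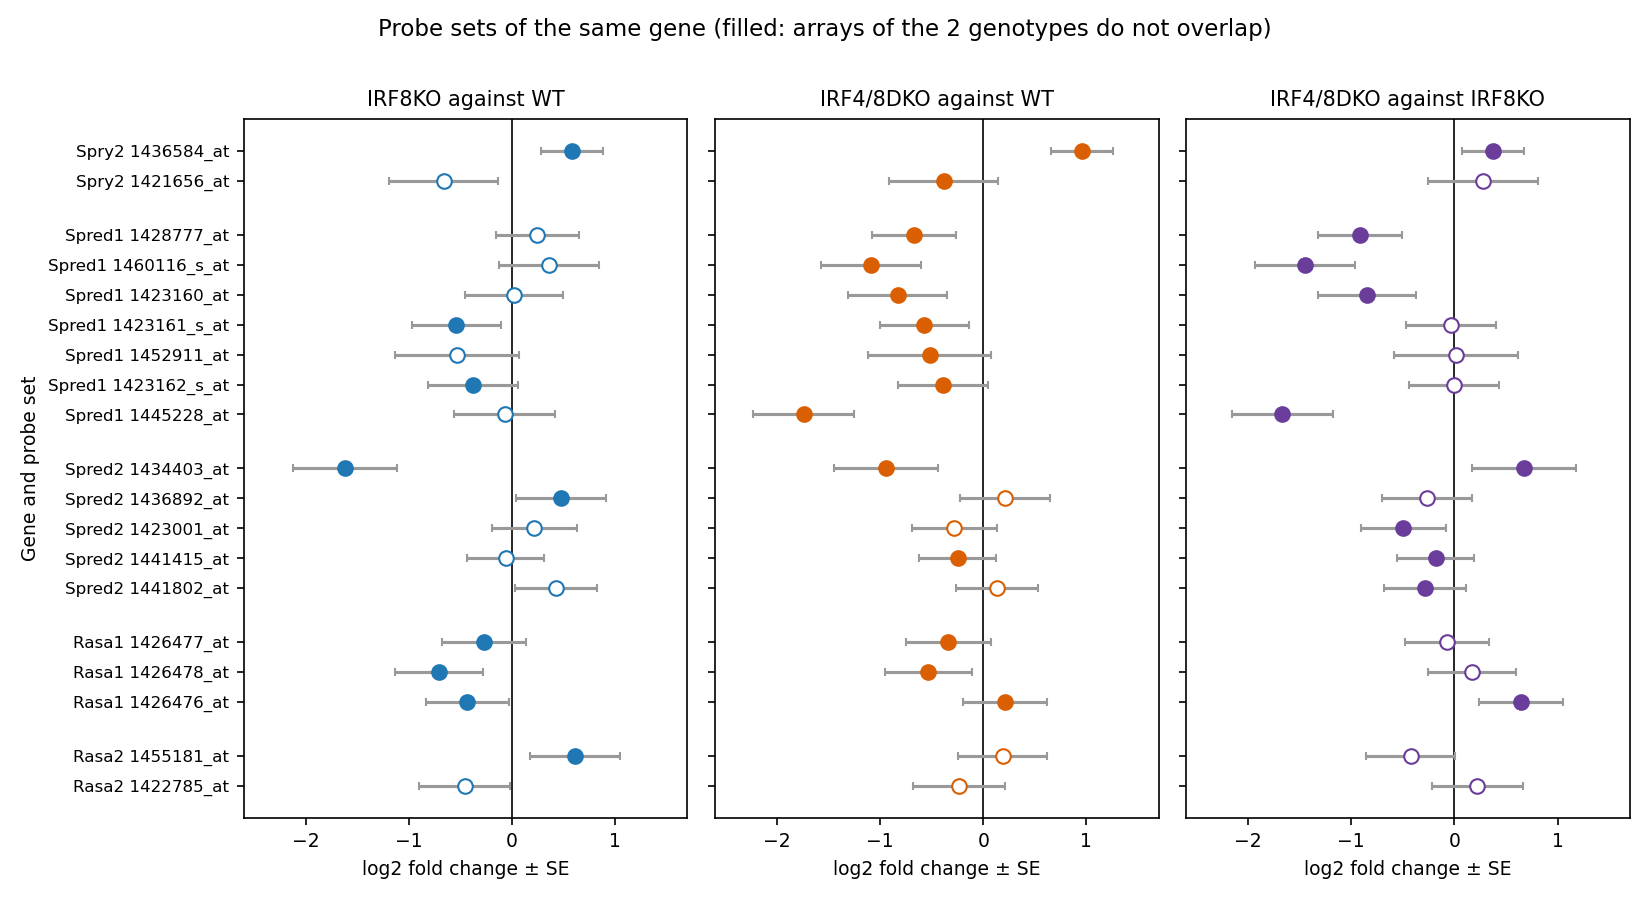
Log2 fold change with its SE from the limma fit for each kept probe set of the 5 members with more than 1 kept probe set, in the 3 comparisons, filled where the 2 arrays of each genotype do not overlap. The 7 Spred1 probe sets lie left of 0 in IRF4/8DKO against WT, while in that comparison the probe sets of Spry2, Spred2, Rasa1 and Rasa2 lie on both sides of 0.

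Spred2, the second Spred gene, had the lowest p of a member in IRF8KO. Its representative probe set, 1434403_at, read 576 and 371 in WT, 93.1 and 218 in IRF8KO, and 246 and 226 in IRF4/8DKO. Both knockouts lay below WT without overlap, and IRF8KO below IRF4/8DKO. IRF8KO lay 3.07-fold below WT (log2 fold change -1.62 ± 0.51 SE, limma adjusted p = 0.229, unadjusted 95% interval -2.77 to -0.47), and IRF4/8DKO 1.92-fold below (-0.94 ± 0.51 SE, limma adjusted p = 0.661). The IRF8KO difference was -2.19 without IRF8KO replicate 2 and -1.05 without IRF8KO replicate 1. The stem and mast cell sums given above are lower in both IRF8KO arrays than in WT too, and their part in this difference was not tested.

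The remaining Spred2 probe sets did not share that pattern. On 1436892_at the values were 120 and 131 in WT, 152 and 208 in IRF8KO, and 182 and 117 in IRF4/8DKO, so IRF8KO lay above WT without overlap (0.47 ± 0.44 SE, limma adjusted p = 0.68). The log2 fold changes of IRF8KO against WT ran from -1.62 to 0.47 over the 5 probe sets, with 3 above 0. Their mean was -0.11.

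Among the representative probe sets, Spred2 by 1434403_at had the widest range of group means, 1.62 on the log2 scale, while the Spred1 probe set 1445228_at, which is not representative, ranged wider. The genes with the pattern most like that of 1434403_at over the 6 arrays, by the root mean square difference of log2 values centred per gene, were Septin1 (0.11), Osbpl1a (0.16) and Ckap2 (0.23). Septin1 read 151 and 120 in WT, 20.4 and 54.9 in IRF8KO, and 58.1 and 56.1 in IRF4/8DKO. It codes for a septin, a filament-forming GTPase. Osbpl1a, an oxysterol-binding protein gene, read 453 and 237, 67.1 and 136, and 213 and 164. Ckap2, a gene for a spindle-associated protein, read 553 and 464, 152 and 287, and 344 and 252. Like 1434403_at, each was highest in WT and lowest on IRF8KO replicate 1, which follows from their choice by likeness to it. None passed the test in a comparison (limma adjusted p between 0.184 and 0.787).

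Dusp6, which codes for a cytoplasmic phosphatase that acts on ERK, read 697 and 371 in WT, 1104 and 660 in IRF8KO, and 766 and 405 in IRF4/8DKO. Within each genotype replicate 1 was the higher array, and each pair of genotypes overlapped. IRF8KO lay 1.66-fold above WT (log2 fold change 0.73 ± 0.50 SE, limma adjusted p = 0.564) and IRF4/8DKO 1.09-fold above (0.13 ± 0.50 SE, limma adjusted p = 0.965). The unadjusted 95% interval of the latter, -1.01 to 1.26, still holds changes of 2-fold in either direction. Leaving out WT replicate 1 gave an IRF8KO difference of 1.18, WT replicate 2 one of 0.29, IRF8KO replicate 1 one of 0.37 and IRF8KO replicate 2 one of 1.101.

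Dusp5, which codes for a nuclear phosphatase of ERK and whose promoter with its CArG boxes is shown above, read 154 and 70.5 in WT, 303 and 152 in IRF8KO, and 99.8 and 51.9 in IRF4/8DKO. Here too replicate 1 was the higher array of each genotype. IRF4/8DKO lay 2.72-fold below IRF8KO without overlap (-1.44 ± 0.55 SE, limma adjusted p = 0.562), and WT overlapped both. IRF8KO lay 1.95-fold above WT (0.97 ± 0.55 SE, limma adjusted p = 0.488), a difference of 0.49 without IRF8KO replicate 1 and 0.46 without WT replicate 2, against 1.44 and 1.48 without the other array of each group.

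Dusp4, a nuclear phosphatase gene, was dim, at a median percentile of 43.1 among the probe sets of an array. It read 34.2 and 18.7 in WT, 40.7 and 13.2 in IRF8KO, and 23.03 and 26.9 in IRF4/8DKO, so the groups overlapped in each comparison. The log2 fold changes were -0.053, -0.030 and 0.023 in the order of the comparisons above (each ± 0.47 SE, limma adjusted p between 0.976 and 0.994), and both differences from WT turned above 0 under quantile normalization (0.047 and 0.15) and median centring (0.086 and 0.19). The 95% interval of IRF8KO against WT, -1.12 to 1.01, leaves room for changes of about 2-fold.

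**Figure D3:**
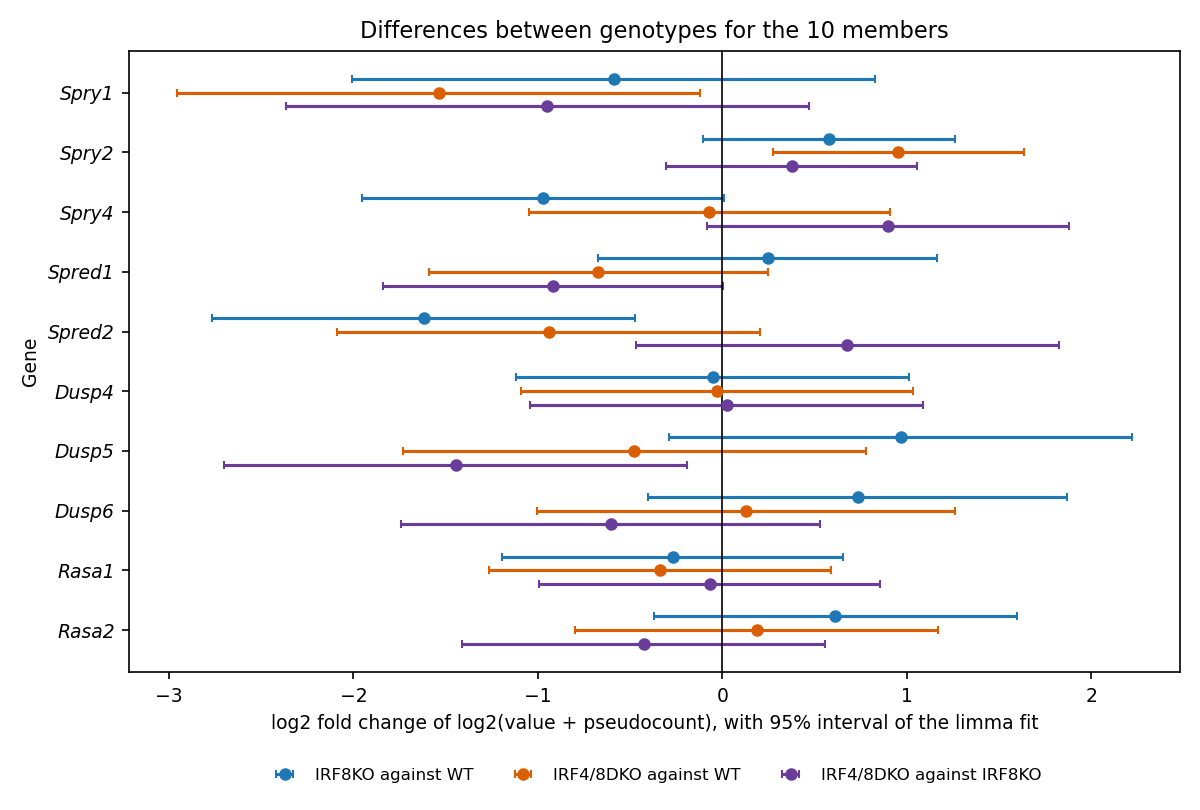
Log2 fold change of the representative probe set of each member, on the scale of log2(value + pseudocount), with the unadjusted 95% interval of the limma fit, in the 3 comparisons. Intervals leave out 0 for Spred2 in IRF8KO against WT, for Spry1 and Spry2 in IRF4/8DKO against WT and for Dusp5 in IRF4/8DKO against IRF8KO, and none of these passed after adjustment over all probe sets.

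Rasa1, the gene of the RAS GTPase-activating protein p120, was lower in IRF8KO than in WT on each of its 3 probe sets without overlap. The representative one, 1426477_at, read 305 and 361 in WT, 262 and 286 in IRF8KO, and 289 and 235 in IRF4/8DKO. Over the 3 probe sets the IRF8KO difference ran from -0.70 to -0.27 on the log2 scale (limma adjusted p between 0.514 and 0.818). In IRF8KO against WT, 7 of 24 member probe sets lay below WT without overlap and 3 above, where the shares over all were 25.9% and 19.8%. In IRF4/8DKO 2 Rasa1 probe sets lay below WT and the remaining one, 1426476_at, above it, with 190 and 207 in WT, 140 and 149 in IRF8KO, and 246 and 218 in IRF4/8DKO. That probe set put IRF4/8DKO 1.56-fold above IRF8KO (0.65 ± 0.40 SE, limma adjusted p = 0.679), while the representative one gave -0.068 ± 0.41 SE, which became 0.014 under median centring.

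Rasa2, a related GTPase-activating protein gene, read 265 and 381 in WT, 544 and 445 in IRF8KO, and 447 and 296 in IRF4/8DKO by 1455181_at. IRF8KO lay above WT without overlap, 1.53-fold (0.61 ± 0.43 SE, limma adjusted p = 0.58), and IRF4/8DKO overlapped both. Without WT replicate 1 the difference was 0.36, and 0.86 without WT replicate 2. The other probe set, 1422785_at, read 129 and 199, 92.3 and 140, and 142 and 127, and gave -0.46 ± 0.44 SE for IRF8KO against WT. The pair thus differed in sign. Between the knockouts, 8 of 24 member probe sets lay lower in IRF4/8DKO than in IRF8KO without overlap and 4 higher, where the shares over all were 17.3% and 19.3%. Of the 8, Spred1 supplied 4 and Spred2 3.

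The other genes of the pathway were described by lists chosen by function. Of the relays from receptors to ERK, 16 of 22 genes had a kept probe set and 0 passed the limma test in any comparison. Mras, a RAS-related GTPase that takes part in RAF activation, read 24.6 and 44.3 in WT, 248 and 320 in IRF8KO, and 90.3 and 361 in IRF4/8DKO. It lay 6.66-fold above WT in IRF8KO and 4.41-fold in IRF4/8DKO (log2 fold change 2.74 ± 0.62 and 2.14 ± 0.62 SE, limma adjusted p = 0.13 and 0.292). Rps6ka3, the gene of the ERK-activated kinase RSK2, read 1198 and 1411, 325 and 526, and 959 and 562, and lay 3.09-fold below WT in IRF8KO (limma adjusted p = 0.173). Gab1, an adaptor gene, lay 2.20-fold above WT in IRF4/8DKO, and Grb2, the adaptor that brings the RAS activator SOS to receptors, 2.10-fold above IRF8KO (limma adjusted p = 0.567 and 0.548).

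Of the receptor tyrosine kinases, 12 of 14 genes had a kept probe set, and 1 passed. Tek, the angiopoietin receptor gene, read 250 and 152 in WT, 8.10 and 5.75 in IRF8KO, and 5.77 and 4.12 in IRF4/8DKO. It fell in both (log2 fold change -3.56 ± 0.40 and -3.74 ± 0.40 SE, limma adjusted p = 0.0423 and 0.0225), with knockout values below the pseudocount, which sets the size. The stem and mast cell sums given above are lower in the same knockout arrays too, and their part in this fall was not tested. The calls were lost without WT replicate 1 or 2 (limma adjusted p = 0.645 and 0.133 in IRF8KO, 0.483 and 0.102 in IRF4/8DKO), without IRF4/8DKO replicate 1 or 2 (0.111 and 0.113, then 0.112 and 0.283) and with sex as a block (0.139 and 0.0774). That of IRF8KO was also lost under 6 further settings, with adjusted p from 0.0529 to 0.12. Among these was the fit with no filter on low values (limma adjusted p = 0.0794, and 0.04 in IRF4/8DKO). Tek passed that filter only through its WT arrays. Kit, which codes for the stem cell factor receptor of the sort gate, read 2170 and 1680, 1824 and 2328, and 2426 and 1998, and overlapped between genotypes. Between the knockouts, Egfr lay 1.77-fold lower and Csf1r, the M-CSF receptor gene, 1.56-fold higher in IRF4/8DKO (limma adjusted p = 0.601 and 0.733). Csf1r also lay above WT without overlap, 2.11-fold in IRF8KO and 3.31-fold in IRF4/8DKO (limma adjusted p = 0.384 and 0.28). So did Insr, the insulin receptor gene, 2.01-fold and 1.73-fold (limma adjusted p = 0.248 and 0.508). In both comparisons with WT, 6 genes of this list lay above 0 and 6 below.

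Of the other negative regulators of RAS and ERK, 20 of 24 genes had a kept probe set and 0 passed. The lowest adjusted p was that of Rasa4, another RAS GTPase-activating protein gene, which read 92.7 and 71.7 in WT, 6.21 and 3.65 in IRF8KO, and 7.45 and 26.9 in IRF4/8DKO (log2 fold change -2.58 ± 0.44 and -1.83 ± 0.44 SE, limma adjusted p = 0.0896 and 0.185). Its knockout arrays lay below WT without overlap, and both IRF8KO arrays and IRF4/8DKO replicate 1 lay under the pseudocount. Nf1, the gene of neurofibromin, the partner of Spred proteins, read 499 and 329, 1202 and 471, and 375 and 157, and lay 3.002-fold lower in IRF4/8DKO than in IRF8KO (limma adjusted p = 0.561). Pebp1, a RAF inhibitor gene, lay 1.31-fold below WT in IRF8KO and 1.23-fold higher in IRF4/8DKO than in IRF8KO (limma adjusted p = 0.274 and 0.6). Dusp16 lay 3.54-fold below WT in IRF4/8DKO (limma adjusted p = 0.531), at 139 and 51.7 in WT against 23.2 and 11.4, near the pseudocount. Whether the product of each gene in this list, such as Dusp16, acts on ERK in these cells was not tested.

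Genes induced by ERK signalling had a kept probe set for 15 of 17, and 0 passed. Plaur, the urokinase receptor gene, read 154 and 191 in WT, 447 and 367 in IRF8KO, and 420 and 643 in IRF4/8DKO, and lay 2.29-fold and 2.92-fold above WT (limma adjusted p = 0.285 and 0.263). Fosb, an AP-1 subunit gene, read 54.6 and 207, 27.7 and 13.04, and 59.2 and 76.98, and lay 3.97-fold below WT in IRF8KO (limma adjusted p = 0.21). It lay 2.61-fold higher in IRF4/8DKO than in IRF8KO (limma adjusted p = 0.58). Egr2, a zinc finger factor gene, lay 2.33-fold above WT and 1.98-fold above IRF8KO in IRF4/8DKO (limma adjusted p = 0.44 and 0.593). Etv5 and Egr1 went the other way, 2.94-fold and 2.70-fold below WT in IRF4/8DKO without overlap (limma adjusted p = 0.45 and 0.551). Egr1 also lay 3.16-fold below WT in IRF8KO (limma adjusted p = 0.31). In IRF4/8DKO against WT, 7 genes of the list lay above 0 and 8 below. The list median was -0.26 and -0.28 in the knockouts against WT, where the median over all probe sets was -0.06 and -0.04. Genes of this list thus lay on both sides of WT, as did the members.

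**Figure D4:**
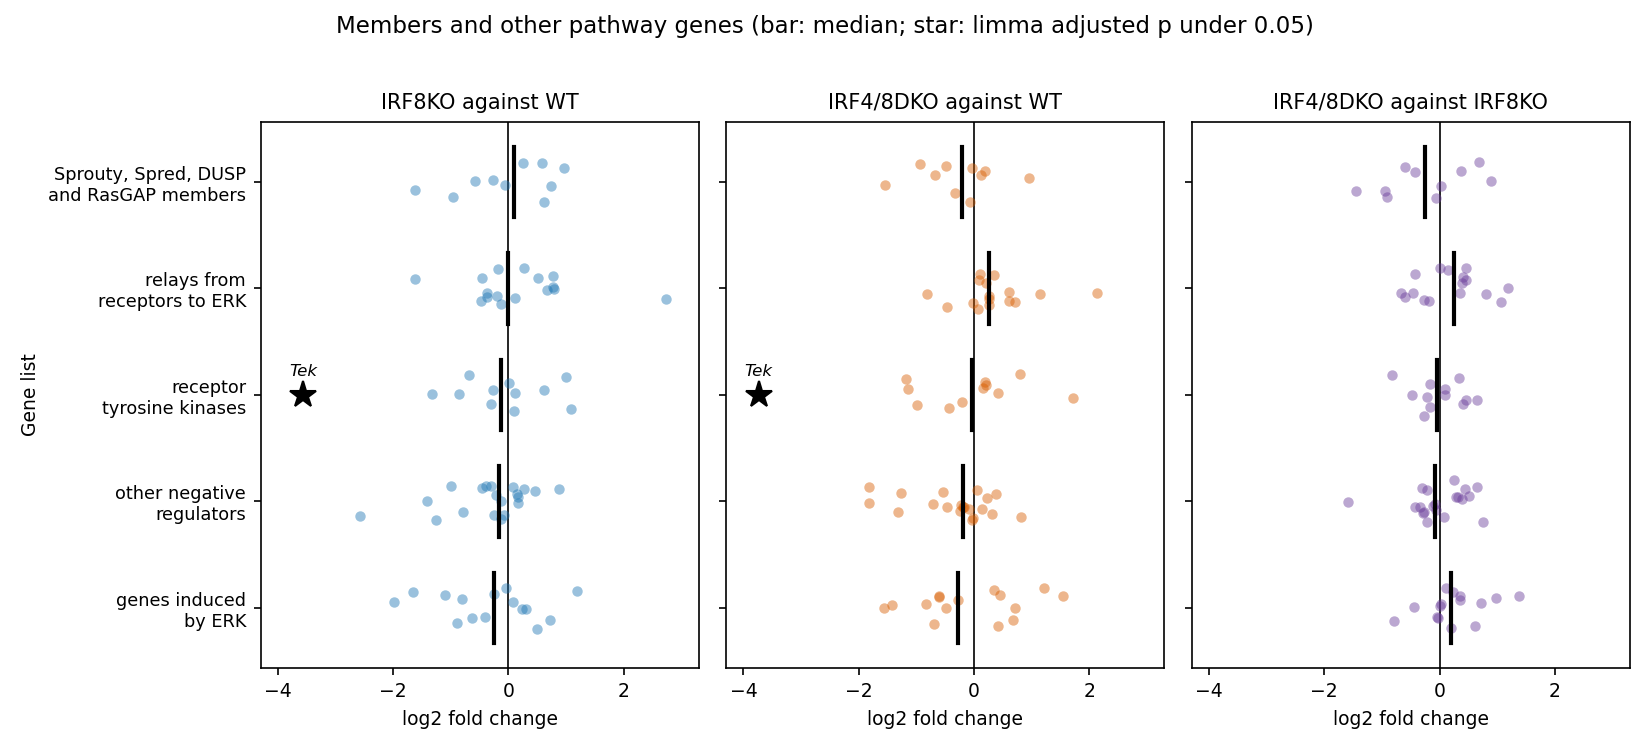
Log2 fold change of the representative probe set of each kept gene in the members and 4 other lists of the RAS to ERK pathway, in the 3 comparisons, with the list median as a bar and a star where the limma adjusted p is under 0.05. Tek is the lone gene with a star, at -3.56 and -3.74, and the list medians lie between -0.28 and 0.26.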

How the data were processed

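The authors deposited linear intensity values, normalized and modelled from perfect-match minus mismatch differences with dChip 1.3, per the series' design text. The baseline array and any floor are unknown here. Of each of the 45037 probe sets log2(value + 10.5) was taken, 10.5 being the 25th percentile of all values, and those above the 40th percentile of their array on at least 2 of 6 arrays were kept. GEO's platform annotation, updated by gene identifier through RefSeq (GRCm38.p6), gave 34945 probe sets 1 symbol, 932 several and 9160 none; the latter were tested but not named. All genotypes entered 1 limma fit (limma 3.58.1, R 4.3.3, variance trend, no covariates, 3 residual and 5.84 prior degrees of freedom), adjusted by Benjamini-Hochberg over the 29783 kept. The code was also run on data simulated from the fitted model itself, which does not bear on the results for members. P-values measure only the spread between these mice. Named were each member, genes of a pathway list past the threshold or else the 2 with the lowest p per comparison, and the 3 genes most like the member with the widest range by representative probe set. Kit, Insr, Etv5, Egr1 and single probe sets were picked after their values were seen. Members and lists were chosen with earlier results of these data known. Alternatives were pseudocounts of 3.9 and 39.23, other filters, scalings, variance priors and covariates, and leaving out each array.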

Additional observations from a re-analysis of the deposited data

Results flagged for a closer look

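Dusp4 differed between the sexes in direction. Set against the WT array of the same sex, both knockout arrays lay lower in males (mean log2 difference -0.67) and higher in females (0.58). Both knockouts share the single WT array of each sex, which read 34.2 in the male and 18.7 in the female. The IRF4/8DKO arrays read 23.03 and 26.9 in the same order, so their signs follow from the WT arrays. How many of all probe sets show such opposite signs was not counted. The knockout males (22 and 16 weeks) were older than the WT male (12 weeks). The knockout females (12 and 16 weeks) were younger than the WT female (19 weeks), so sex and age cannot be told apart here. With 1 array per sex and genotype, at 13.2 to 40.7, this difference was not tested.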

How the results depend on the processing

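No member probe set passed the limma test under any of the 18 alternatives in a comparison (0 each time). The lowest adjusted p of a member probe set was 0.0696 in IRF8KO against WT (Spred2, without IRF8KO replicate 2), 0.089 in IRF4/8DKO against WT (fit of these genotypes only) and 0.125 between the knockouts (without IRF8KO replicate 1). The replicate block, which uses the replicate number of the titles, also gave 0, with lowest adjusted p of 0.181, 0.195 and 0.351. Deviations of same-numbered arrays were weakly and positively correlated, at 0.0411, 0.187 and 0.211 in the order of the comparisons. The titles do not say what the replicate numbers share, and whether they mark a pairing was not tested. Over all probe sets, the count of calls was 9, 89 and 0, against 209, 216 and 1 with the block, and ran from 0 to 1090, 0 to 484 and 0 to 200 over the alternatives. Median centring moved the median log2 fold change of all probe sets against WT from -0.06 to 0.08 and from -0.04 to 0.18. Of 561 recomputed log2 fold changes of members, 531 kept their sign and 30 reversed, and no tested one of the 561 was past the threshold (means over probe sets have no test), and the cause of the reversals was not tested. For IRF8KO against WT, Dusp4 reversed under quantile normalization (0.047), median centring (0.086) and age (0.10), and ran from -0.61 to 0.50 with 1 array left out. The mean over a gene's probe sets reversed Spry2 (-0.042) and Spred1 (-0.13). For IRF4/8DKO against WT, Dusp4 reversed under quantile normalization (0.15), median centring (0.19) and age (0.022), Spry4 under quantile normalization (0.12) and median centring (0.15), and Rasa2 by the mean of probe sets (-0.025). With 1 array left out, ranges were -0.34 to 0.28 for Dusp4, -0.41 to 0.27 for Spry4, -0.99 to 0.034 for Dusp5, -0.32 to 0.58 for Dusp6 and -0.10 to 0.48 for Rasa2. Between the knockouts, Dusp4 reversed at the median pseudocount (-0.013) and with age (-0.081), Rasa1 under median centring (0.014) and by the mean of probe sets (0.25), and Spred2 by that mean (-0.11). Ranges with 1 array left out were -0.53 to 0.58 for Dusp4 and -0.21 to 0.077 for Rasa1. The filter at the 60th percentile gave no value for the representative probe sets of Spry1, Spry4 and Dusp4.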
